A study of Mus musculus with 4 samples.

Results

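The MHC class I molecule, its peptide supply line and its transcriptional activator are described here through 10 genes of sorted mouse dendritic cells (DCs). The genes were chosen by symbol, and all 10 were found once each among the 46078 gene rows of the count table. They are the heavy chain genes H2-K1 and H2-D1, the light chain gene B2m, the peptide transporter genes Tap1 and Tap2, the loading chaperone gene Tapbp, the inducible proteasome genes Psmb8 and Psmb9, the trimming peptidase gene Erap1 and the activator gene Nlrc5. RNA was read by poly(A) sequencing in 2 libraries of CD11c-cre mice (Ctrl) and 2 of CD11c-cre-Il33flx/flx mice (Il33flx). Both groups carry Cre, and by their labels they differ in the loxP-flanked Il33 alleles. EL4-Flt3 tumour cells had been given to both groups 10 days earlier. The sort took CD45+, CD64-, CD11b+, MHCII+, CD103+ cells from the spleen and the mesenteric lymph nodes. CD11c-driven Cre acts in DCs but also in some macrophages and other CD11c-expressing cells. The labels give no age or sex and do not say whether libraries came from separate or pooled animals, so p-values cover just the variation among these libraries, which could be technical.

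Nearly all nucleated cells show fragments of their own proteins on MHC class I. The proteasome cuts proteins in the cytosol, the TAP transporter moves the peptides into the endoplasmic reticulum, ERAP1 trims them, and tapasin holds an empty class I molecule beside TAP until a peptide fits. Interferon-gamma and the activator NLRC5 raise most of these genes together, and DCs, above all those that carry XCR1, also load class I with peptides from material they have taken up, which is called cross-presentation.

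The libraries held 67707682 to 81217828 gene counts, and the members' counts ran from 6085 for Nlrc5 in Il33flx 2 to 849592 for H2-D1 in Ctrl 1. Values are TMM-normalized CPM, that is, counts scaled to a common library total after a correction for composition. Where 4 values of a gene are listed, they stand in the order Ctrl 1, Ctrl 2, Il33flx 1 and Il33flx 2. DC genes were read in every library, with Xcr1 at 506 to 841 CPM, Itgam (CD11b) at 97.8 to 128 CPM and Itgae (CD103) at 56.8 to 116 CPM, while Fcgr1 (CD64) lay at 3.66 to 5.50 CPM. The targeted gene Il33 had 4, 8, 4 and 0 counts in Ctrl 1, Ctrl 2, Il33flx 1 and Il33flx 2, too few to check the labels. Ctrl 1 stood apart from the other libraries on the first principal component, at -47.0 against 12.8 to 17.1 for the others, and that component carried 61.3% of the variance of log2(CPM + 0.5). In bulk RNA, fewer cells of a type and less RNA per cell cannot be told apart.

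None of the 10 genes differed between Il33flx and Ctrl past the threshold. With edgeR's quasi-likelihood test, 0 of 10 were called at an adjusted p below 0.05, where 0.00667% of the 14995 genes tested were called, and 0 of 10 had an unadjusted p under 0.05, where 3.26% of all genes had one. DESeq2 called 0 of the 10, where it called 0.353% of all genes, and limma-voom called 0 of the 10 and 0 of all 14995 genes. Log2 fold changes of Il33flx over Ctrl ran from -0.28 for Tap1 to 0.22 for Erap1, with a median of -0.14 over the 10 and of 0.014 over all genes tested. The 95% intervals reached from 0.570-fold, the lower bound of Tap1, to 1.70-fold, the upper bound of Erap1. Of the 10 genes, 8 had a negative fold change, as had 48.2% of all genes tested.

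Ctrl 1 gave the extreme value of each of the 10 genes, and for 5 of them (H2-K1, H2-D1, Tap1, Tap2 and Erap1) it lay farther from its nearest library than the other libraries lay from each other. For Tapbp, Psmb8, Psmb9, Nlrc5 and B2m it did not. Ctrl 1 was the highest of the 4 libraries for 8 of the 10 genes and the lowest for B2m and Erap1, where 34.2% of all genes tested were highest in Ctrl 1 and 36.0% lowest. The 10 genes together took 21688 CPM in Ctrl 1 against 17096 in Ctrl 2, 17319 in Il33flx 1 and 17042 in Il33flx 2, so Ctrl 1 stood at 1.26 times the mean of the other libraries. Ctrl 2 lay within 0.891 to 1.096 times the Il33flx mean for each of the 10 genes. Without Ctrl 1 the median log2 fold change was 0.017, and 3 of the 10 were negative.

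**Figure D1:**
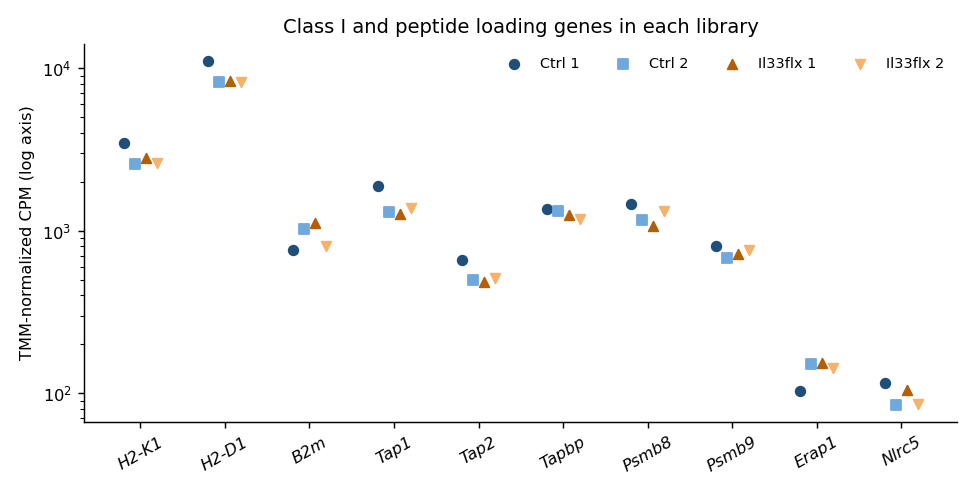
Level of each of the 10 genes (x axis) in TMM-normalized CPM on a log axis, with 1 point per library and a marker for each of Ctrl 1, Ctrl 2, Il33flx 1 and Il33flx 2. Ctrl 1 is the top point for 8 genes and the bottom point for B2m and Erap1, while for B2m Il33flx 2 lies near Ctrl 1.

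The heavy chain genes gave about the same values in Ctrl 2 and both Il33flx libraries. H2-D1, which encodes the H2-D heavy chain (chromosome 17, 35262730 to 35267499, plus strand of GRCm38), read 11070, 8295, 8364 and 8233 CPM. Ctrl 1 was high and the other libraries lay within a narrow band, so the groups overlapped. Its log2 fold change of -0.22 ± 0.21 SE had 95% bounds of -0.72 and 0.27 (adjusted p = 0.995, edgeR). H2-K1, which encodes the H2-K heavy chain (chromosome 17, 33996017 to 34000347, minus strand), read 3451, 2568, 2808 and 2619 CPM, and its log2 fold change was -0.15 ± 0.21 SE (adjusted p = 0.995, edgeR). Here too Ctrl 1 was high and Ctrl 2 was the lowest library. H2-D1 alone took 0.831% to 1.05% of all gene counts, and the ratio of H2-D1 to H2-K1 counts was 3.22 ± 0.0155 in Ctrl and 3.06 ± 0.116 in Il33flx (SD, n = 2 each). The 2 heavy chain genes therefore held nearly the same proportion in Ctrl 1 and Ctrl 2, at 3.21 and 3.23. Heavy chain genes share sequence with each other and with the H2-Q and H2-T genes. Of all reads tallied, in genes or not, 21.9% to 23.1% did not align uniquely and stayed out of the gene counts. The levels of the heavy chain genes are therefore uncertain.

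The deviations of H2-K1 and H2-D1 from their own means were much alike. The bases before their start sites are shown because they carry the same elements in the same order. A link between these elements and the values was not tested. Both windows are the 250 bases before a RefSeq start site on GRCm38.p6, for H2-K1 the first of 2 that the table lists (34000347 and 34000333), 5′ to 3′ on the gene's strand, at chr17:34000348-34000597 (minus strand) for H2-K1 and chr17:35262844-35263093 (plus strand) for H2-D1. Capitals mark matches on either strand to GGGGA, any 2 bases and CCC (an NF-kB form), GAAA, any 2 bases and GAAA (the interferon-stimulated response element, ISRE), TGACG (the core of the cAMP response element, CRE) and CCAAT.
H2-K1: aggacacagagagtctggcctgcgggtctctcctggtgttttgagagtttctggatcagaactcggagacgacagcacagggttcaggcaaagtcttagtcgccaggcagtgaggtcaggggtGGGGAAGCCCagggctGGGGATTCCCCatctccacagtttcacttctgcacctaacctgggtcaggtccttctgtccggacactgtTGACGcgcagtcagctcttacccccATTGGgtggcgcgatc
H2-D1: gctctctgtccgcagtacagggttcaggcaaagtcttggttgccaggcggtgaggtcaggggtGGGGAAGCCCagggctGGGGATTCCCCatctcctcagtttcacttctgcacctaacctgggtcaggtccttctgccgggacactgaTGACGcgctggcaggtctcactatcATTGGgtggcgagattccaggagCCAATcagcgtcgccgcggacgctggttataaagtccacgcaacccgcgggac
In each, a pair of NF-kB forms came first, then TGACG, then CCAAT, which reads ATTGG on this strand. A further CCAAT lay nearer the start in the H2-D1 window and in the window of the other H2-K1 start site, where it began 6 bases before that start. The second NF-kB form reads as a match on both strands, and these matches overlap each other. The 2 windows shared an unbroken run of 47 bases across the NF-kB forms, and 87.4% of the 190 bases that could be set side by side from that run, without gaps, were identical. Of all 32851 RefSeq windows of this length, 1.41% held the NF-kB form, 17.8% TGACG, 33.8% CCAAT and 2.98% the ISRE form. Among the 8 members with a window in the table, 2, 5, 6 and 1 held them in that order. These counts are not independent. The windows of Psmb9 and Tap1 overlap, and the same TGACG and the same CCAAT count for both genes. The 2 with the NF-kB form are the similar windows of H2-K1 and H2-D1. A match is a run of letters and not a measured binding site. Only these exact letters were searched, so a window without a match can still hold another form of the element. Tap2 and Nlrc5 had no entry.

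B2m, which encodes the β2-microglobulin light chain that every classical class I heavy chain needs to reach the surface, did not follow the heavy chains. B2m (chromosome 2, 122147686 to 122153083, plus strand) read 766, 1024, 1110 and 804 CPM. Ctrl 1 and Il33flx 2 were low and the other libraries high, so each group held 1 low and 1 high library. Its log2 fold change of 0.097 ± 0.24 SE had 95% bounds of -0.47 and 0.67 (adjusted p = 0.995, edgeR). Counts of H2-K1 and H2-D1 together over those of B2m came to 19.0, 10.6, 10.06 and 13.5. This ratio does not depend on library scaling, and its spread within Ctrl (SD 5.90, n = 2) was larger than the distance between the group means of 14.8 and 11.8. The 13 protein genes of the mitochondrial genome were also low in Ctrl 1 and Il33flx 2, at 543 and 927 CPM in sum against 1778 in Ctrl 2 and 1574 in Il33flx 1. Their part in the B2m values was not tested.

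The window before B2m is printed because it was the only one of the 8 to match the exact ISRE letters searched. It spans chr2:122147437-122147686 on the plus strand of GRCm38.p6, and capitals mark the same motifs as above.
B2m: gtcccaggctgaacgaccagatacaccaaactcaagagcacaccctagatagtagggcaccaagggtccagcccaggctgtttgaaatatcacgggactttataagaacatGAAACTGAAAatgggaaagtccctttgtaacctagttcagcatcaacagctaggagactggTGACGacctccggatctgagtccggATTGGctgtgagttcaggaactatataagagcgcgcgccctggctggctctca
The ISRE form began 139 bases before the start site, TGACG 78 bases before it and CCAAT, as ATTGG, 53 bases before it. TGACG and CCAAT thus stood in the order seen before H2-K1 and H2-D1, while no match to the NF-kB form searched lay in this window. Other NF-kB forms were not searched.

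The transporter genes were also high in Ctrl 1. Tap1 (chromosome 17, 34187553 to 34197225, plus strand), which encodes one subunit of the TAP peptide pump, read 1893, 1307, 1269 and 1376 CPM. Ctrl 1 stood at 1.44 times the mean of the other libraries, and Ctrl 2 lay between the Il33flx libraries. Its log2 fold change of -0.28 ± 0.22 SE had 95% bounds of -0.81 and 0.26 (adjusted p = 0.995, edgeR). Tap2 (chromosome 17, 34203527 to 34216321, plus strand), the partner subunit, read 656, 496, 481 and 513 CPM, with a log2 fold change of -0.21 ± 0.20 SE (adjusted p = 0.995, edgeR). The ratio of Tap1 to Tap2 counts was 2.89 in Ctrl 1 and 2.64 to 2.68 in the other libraries.

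Tap1 and Psmb9 lie head to head, and the 225 bases between their RefSeq start sites are shown because both genes are read outward from them. The stretch is chr17:34187331-34187555 on the plus strand of GRCm38.p6, with Psmb9 to its left and Tap1 to its right, and capitals mark the motifs named above.
Psmb9-Tap1: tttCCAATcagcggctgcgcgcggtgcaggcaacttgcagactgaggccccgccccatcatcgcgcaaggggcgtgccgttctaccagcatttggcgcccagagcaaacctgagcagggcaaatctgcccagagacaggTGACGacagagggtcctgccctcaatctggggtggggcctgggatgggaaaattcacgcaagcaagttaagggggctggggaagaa
CCAAT stood next to the Psmb9 start, 222 bases before that of Tap1, and TGACG stood 86 bases before that of Tap1. In GENCODE M21 exons of the pair overlap on opposite strands. The strand setting of the counting was not given, so reads in that overlap could not be assigned with certainty. Ctrl 1 stood at 1.44 times the mean of the other libraries for Tap1 and at 1.12 times for Psmb9.

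Tapbp was the 1 gene of the 10 whose groups did not overlap. Tapbp (chromosome 17, 33915899 to 33929292, plus strand) encodes tapasin, the chaperone that bridges TAP and class I, and read 1367, 1332, 1242 and 1189 CPM. Both Il33flx libraries were lower than both Ctrl libraries, a pattern found in that direction for 14.9% of all genes tested. The Ctrl mean was 1349 ± 24.5 CPM and the Il33flx mean 1215 ± 37.7 CPM (SD, 2 libraries each). The log2 fold change of -0.15 ± 0.16 SE did not pass the test (adjusted p = 0.995, edgeR). Without Ctrl 1 it was -0.12, and Tapbp was the 1 gene of the 10 whose sign was the same in each alternative fit. Tapbp exons overlap those of Gm19412 on the opposite strand and of Zbtb22 on the same strand. Exons of Tap2, Psmb8 and Nlrc5 also overlap those of noncoding genes on the opposite strand.

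**Figure D2:**
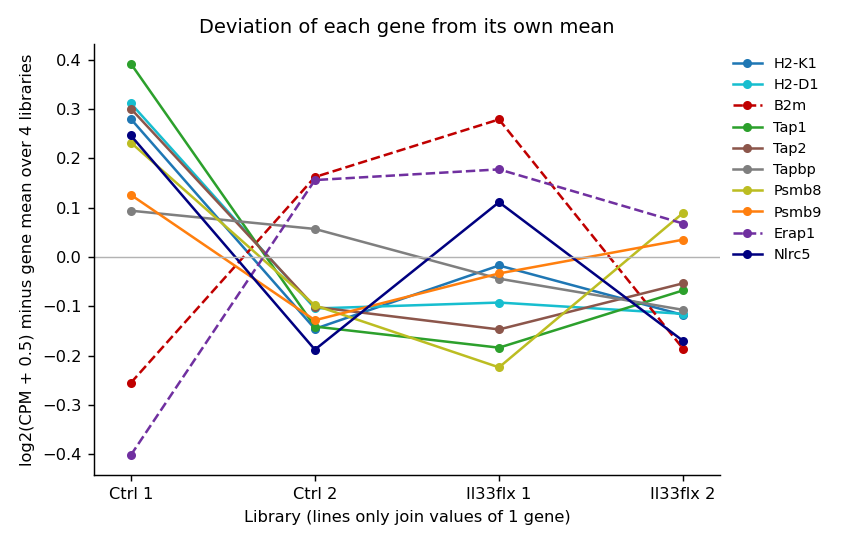
Deviation of each gene from its own mean over the 4 libraries, in log2(CPM + 0.5), with 1 line per gene and dashed lines for B2m and Erap1. Ctrl 1 lies above 0 for 8 genes and below 0 for B2m (-0.26) and Erap1 (-0.40), and Tapbp lies above 0 in both Ctrl libraries and below 0 in both Il33flx libraries.

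The inducible proteasome genes held a similar proportion to the standard subunits in most libraries. Psmb8 (chromosome 17, 34197721 to 34201454, plus strand) and Psmb9 (chromosome 17, 34181987 to 34187764, minus strand) encode catalytic subunits that replace those of Psmb5 and Psmb6 in the immunoproteasome, which cuts peptides well suited to class I. Psmb8 read 1462, 1163, 1066 and 1324 CPM, so the groups overlapped, with a log2 fold change of -0.14 ± 0.21 SE (adjusted p = 0.995, edgeR). Psmb9 read 805, 675, 721 and 756 CPM. Both Il33flx libraries lay between the Ctrl libraries, and the log2 fold change of Psmb9 was -0.0032 ± 0.18 SE (adjusted p = 0.9999, edgeR), or 0.078 with library size as the only scaling.

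Per kilobase of annotated exon, Psmb8 stood at 3.81, 3.61, 3.62 and 3.75 times Psmb5. The means of 3.71 ± 0.142 in Ctrl and 3.68 ± 0.0873 in Il33flx (SD, n = 2 each) differed by less than the spread between libraries. Psmb9 stood at 1.32, 1.22, 1.44 and 1.29 times Psmb6 on the same scale, with means of 1.27 ± 0.0687 in Ctrl and 1.37 ± 0.107 in Il33flx. Here the groups overlapped as well, with Ctrl 1 above Il33flx 2. The third such pair, Psmb10 over Psmb7, was 7.38, 4.54, 4.69 and 5.21, so Ctrl 1 alone was high. With the length of the longest transcript in place of all exons, Psmb9 over Psmb6 was 0.864 ± 0.0603 over the 4 libraries, against 1.32 ± 0.0922, so whether that ratio exceeds 1 depends on the length used. These ratios do not depend on library scaling, and they are described without a test.

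**Figure D3:**
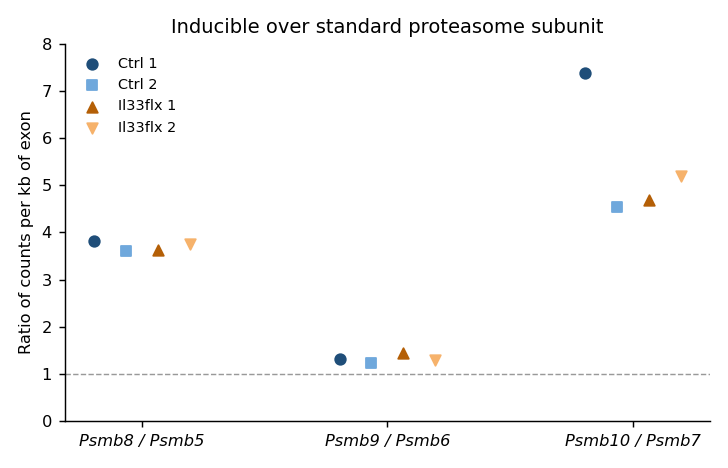
Ratio of counts per kilobase of exon for each inducible proteasome subunit over the standard subunit it replaces, with 1 point per library and a dashed line at a ratio of 1. Psmb8 over Psmb5 lies at 3.61 to 3.81 in all libraries, whereas Psmb10 over Psmb7 reaches 7.38 in Ctrl 1.

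Erap1, like B2m, was lowest in Ctrl 1. Erap1 (chromosome 13, 74639568 to 74693201, plus strand), which encodes the aminopeptidase that shortens peptides in the endoplasmic reticulum, read 103, 152, 154 and 143 CPM. Ctrl 1 stood at 0.688 times the mean of the other libraries, and Ctrl 2 lay between the Il33flx libraries. Its log2 fold change of 0.22 ± 0.23 SE had 95% bounds of -0.33 and 0.77 (adjusted p = 0.995, edgeR), and it was -0.024 without Ctrl 1. Erap1 exons overlap those of Cast on the opposite strand. Of 6 further peptidases that trim class I peptides, 4 were also lowest in Ctrl 1, 1 was highest there and 0 were called. Over all genes tested 36.0% were lowest in Ctrl 1, 34.2% were highest there and 0.00667% were called. Tpp2, a cytosolic peptidase gene, read 29.2, 121, 99.1 and 94.3 CPM, and Blmh, the bleomycin hydrolase gene, 69.8, 99.4, 96.6 and 108 CPM.

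Nlrc5, which encodes the class I transactivator (chromosome 8, 94434356 to 94527272, plus strand), read 115, 84.9, 105 and 85.9 CPM. Replicate 1 was the higher library in both groups, and the groups overlapped. Its log2 fold change of -0.069 ± 0.22 SE had 95% bounds of -0.60 and 0.46 (adjusted p = 0.995, edgeR), and it was 0.018 with library size as the only scaling. Among 15 other factors that act on class I promoters 0 were called, where 0.00667% of all genes tested were. Their median log2 fold change was -0.025, and 1 was lower without overlap, where 14.9% of all genes tested were. That gene was Rela, an NF-kB subunit gene, at 229, 187, 163 and 171 CPM (log2 fold change -0.31 ± 0.18 SE, adjusted p = 0.995, edgeR). Irf1, which encodes an interferon-induced activator of class I, read 304, 227, 279 and 210 CPM. Like Nlrc5, it was higher in replicate 1 of both groups, but same-numbered libraries share only a number. How many of all genes had this pattern was not counted.

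**Figure D4:**
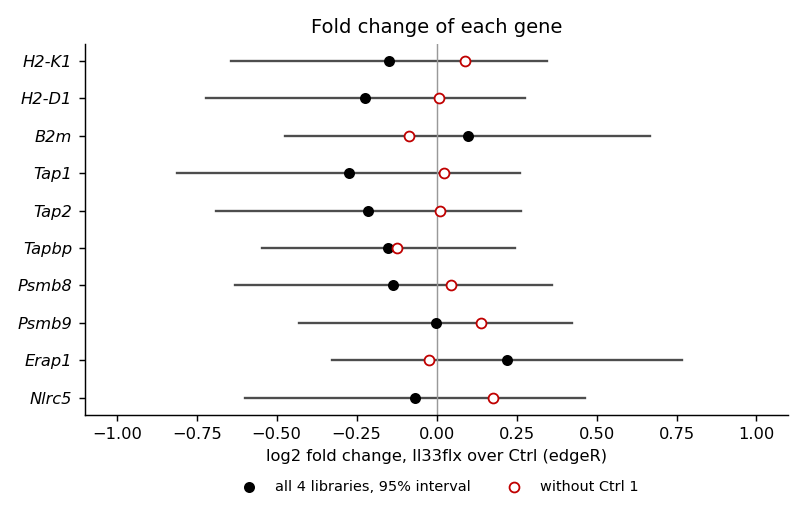
Log2 fold change of Il33flx over Ctrl (x axis, edgeR) for each of the 10 genes, as a filled point with its 95% interval for all 4 libraries and an open point for the fit without Ctrl 1. All 10 intervals hold 0, and without Ctrl 1 the points lie between -0.12 (Tapbp) and 0.17 (Nlrc5).

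Levels were compared between genes only per kilobase of the longest annotated transcript, as the mean ± SD over the 4 libraries. H2-D1 came first at 4277 ± 659.8 CPM per kb, followed by H2-K1 at 1527 ± 217, B2m at 1077 ± 194 and Psmb8 at 658 ± 91.9. Tapbp at 443 ± 28.2 and Tap1 at 374 ± 74.4 did not differ beyond their spread. Psmb9 at 256 ± 19.1 and Tap2 at 156 ± 23.5 came next, and Erap1 at 24.4 ± 4.22 and Nlrc5 at 12.9 ± 1.93 CPM per kb were last. The light chain gene B2m thus lay below H2-D1, and Tap1 lay above Tap2, its partner in the pump. With the union of all exons as length, H2-K1 at 974 ± 138 and B2m at 1077 ± 194 CPM per kb did not differ beyond their spread, nor did Psmb8 at 371 ± 51.8 and Tapbp at 353 ± 22.5. The remaining order was the same.

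Other genes of the pathway were read from lists. With edgeR 0 of their members were called in either direction, where 0.00667% of all genes tested were called. The 18 tested genes for other class I and class I-like chains had a median log2 fold change of -0.068. Of these 18, 11 were highest in Ctrl 1, where 34.2% of all genes tested were. H2-T23, which encodes the Qa-1 chain, read 820, 656, 684 and 636 CPM. H2-M3, which encodes a chain that presents N-formylated peptides, read 266, 210, 201 and 214 CPM. The near-identical H2-Q6 and H2-Q7, whose reads cannot be split with certainty, had log2 fold changes of 0.0038 and 0.15. Fcgrt, the neonatal Fc receptor gene, and Hfe, an iron-regulating class I-like gene, both use β2-microglobulin and had log2 fold changes of -0.21 and -0.065, the latter 0.019 with library size as the only scaling.

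The chaperone list was mixed, with 4 of 8 genes highest and 3 lowest in Ctrl 1 and a sum of 7899, 8525, 8164 and 7776 CPM. The 3 lowest in Ctrl 1, named after their values were seen, were Pdia3, Canx and Uggt1, at 1649, 403 and 297 CPM there. Among 8 other chaperones of class I folding and loading the median was -0.062. Tapbpl, which encodes the peptide editor TAPBPR, read 284 CPM in Ctrl 1 and 187, 197 and 202 CPM in the others, Calr, the calreticulin gene, 1324 against 1094, 1117 and 1076, and Ganab, a glucosidase subunit gene, 289 against 211, 238 and 194. Hspa5, which encodes the chaperone BiP, read 3434, 3189, 3131 and 3153 CPM, and was lower in Il33flx without overlap, at a log2 fold change of -0.076 ± 0.17 SE (adjusted p = 0.995, edgeR) that was 0.0038 with library size as the only scaling. All 4 genes of the inducible proteasome list, Psmb10, the activator subunits Psme1 and Psme2 and the assembly factor Pomp, were highest in Ctrl 1, with log2 fold changes of -0.15 to -0.059 (Pomp 0.020 with library size as the only scaling) and, without Ctrl 1, a median of 0.053. Of 16 standard proteasome genes 9 were lowest in Ctrl 1 and the median was 0.053. Over all genes tested 34.2% were highest and 36.0% lowest in Ctrl 1.

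Of the 16 tested genes of the cross-presentation list 5 were lower in both Il33flx libraries, against the 14.9% of all genes given above. The list's median log2 fold change was -0.050, with 11 genes negative and 5 positive. In Ctrl 1, 9 of the 16 were highest, where 34.2% of all genes tested were. In edgeR 0 were called and 0 had an unadjusted p under 0.05, where 0.00667% and 3.26% of all genes did. The genes named next had the smallest p of the list, and all were negative. Rab43, a small GTPase gene tied to cross-presentation in XCR1-positive DCs, read 1588, 1395, 1187 and 1122 CPM (log2 fold change -0.37 ± 0.17 SE, adjusted p = 0.995, edgeR). Wdfy4, needed for cross-presentation of cell-associated antigen, read 2847, 2247, 2018 and 2118 CPM, with a log2 fold change of -0.30 ± 0.19 SE. Sec61a1, a translocon gene, and Vcp, which encodes the ATPase that extracts proteins from the endoplasmic reticulum, had log2 fold changes of -0.29 and -0.36. Without Ctrl 1, the values were -0.27 for Rab43, -0.11 for Wdfy4, -0.16 for Sec61a1 and -0.087 for Vcp.

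The lists of interferon-gamma response and MHC class II genes held 0 called genes with edgeR, where 0.00667% of all genes tested were called. Among 21 interferon-gamma genes the median was -0.047, with 2 lower and 2 higher without overlap, where 14.9% and 15.4% of all genes tested were. Cxcl10, a chemokine gene, read 8.27, 9.59, 17.9 and 10.5 CPM, and Jak2, a receptor-bound kinase gene, read 68.9, 91.8, 53.7 and 65.7 CPM, with adjusted p of 0.995 for both in edgeR. Among 10 MHC class II genes the median was -0.086, and 0.11 without Ctrl 1, and H2-DMb2, an editor of class II peptides, read 315, 326, 390 and 385 CPM.

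**Figure D5:**
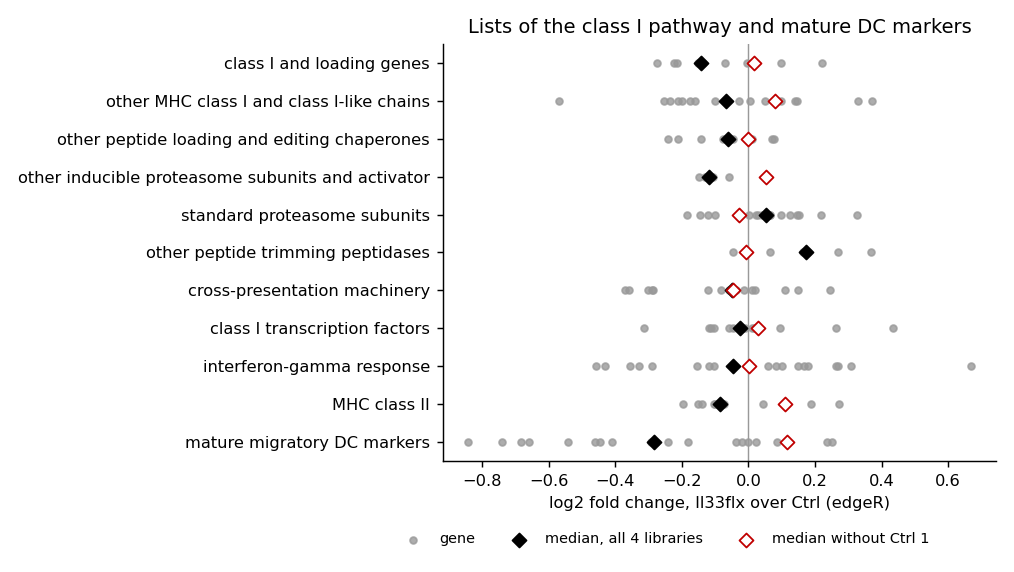
Log2 fold changes of Il33flx over Ctrl (x axis, edgeR) for the genes of each list (grey), with the list's median in all 4 libraries (filled diamond) and without Ctrl 1 (open diamond). The median of the 10 class I and loading genes goes from -0.14 to 0.017 and that of the mature DC markers from -0.28 to 0.12.

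Markers of other cells were set beside the class I values because every nucleated cell adds class I message. The 20 markers of mature migratory DCs summed to 5089, 3647, 3733 and 3700 CPM, with Ctrl 1 at 1.38 times the mean of the others. Of these 20 markers 14 were highest in Ctrl 1 and 3 lowest, where 34.2% and 36.0% of all genes tested were. Ccr7, whose product steers DC migration into lymph nodes, stood at 999 CPM in that library and at 415 to 489 CPM elsewhere. The 3 lowest in Ctrl 1 were Cd86, Samsn1 and Tmem123. Cd86 went the other way from Ccr7, with values of 252, 459, 382 and 372 CPM. The 10 B cell markers summed to 62.7 and 64.6 CPM in Ctrl and 134 and 112 CPM in Il33flx, and the 10 markers of T cells and EL4 to 200 and 144 CPM in Ctrl and 158 and 118 CPM in Il33flx. Without overlap, 10 of 10 B cell markers were higher in Il33flx (15.4% of all genes tested) and 7 of 10 T cell and EL4 markers lower (14.9% of all genes tested). The 10 erythroid markers summed to 6.43 to 6.75 CPM in Ctrl and 15.2 to 36.5 CPM in Il33flx, and the 10 neutrophil markers to 325 to 358 and 442 to 626 CPM. Macrophage markers, 10 in all, summed to 1024 to 1246 CPM in Ctrl and 1157 to 1192 CPM in Il33flx. Plasmacytoid DC markers, 8 in all, summed to 204 to 205 and 181 to 256 CPM, and the 8 NK cell markers to 18.5 to 31.6 and 21.4 to 21.7 CPM. The part of these cells in the class I values was not tested.

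Genes with the profile most like that of the 10 were sought among 3761 other named protein-coding genes with a mean of at least 50 CPM. Likeness was the Euclidean distance, over the 4 libraries, to the median of the members' centred log2(CPM + 0.5). The nearest 5 were Akt2 (0.0219), Elmo2 (0.0234), Saraf (0.0278), Stat3 (0.0280) and Scimp (0.0285). Because they were picked by this distance, each stood high in Ctrl 1 and level elsewhere, like the median. Stat3 read 521 CPM in Ctrl 1 and 414 to 436 CPM in the other libraries. Among the members themselves H2-K1 was the nearest to that median (0.0698), while B2m (0.653) and Erap1 (0.742) were the farthest. The closest pair of members was H2-D1 and Tap2 (0.0833), followed by H2-K1 and H2-D1 (0.0915).

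In the authors' deposited table, made from the same counts with DESeq2, the log2 fold changes of the 10 genes ran from -0.30 for Tap1 to 0.20 for Erap1. Each of the 10 had an adjusted p of 0.999997 in the authors' deposited table.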

How the data were processed

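Poly(A) RNA of 2 Ctrl and 2 Il33flx libraries was sequenced. The deposited gene counts are whole numbers per gene, left unnormalized by the authors. The tools named for them are STAR, HTSeq, DESeq2 and Trimmomatic 0.39, with the build GRCm38, per the submitters' processing notes. Other versions, the annotation and the strand setting are not given in the sources used here. The 5 HTSeq summary rows (reads not unique 21.9% to 23.1%, ambiguous 2.62% to 2.74%, in no feature 3.22% to 4.93%) stayed out of library sizes and tests. In the authors' deposited table, the signal columns are counts divided by 1 size factor per library, the log2 columns a fold change and its standard error, the score column a test statistic, and the p-value columns unadjusted and adjusted p-values. It was used where the text names it.

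Genes were matched to GENCODE M21 (GRCm38), which named 45143 of 46078 rows. Il33flx was compared with Ctrl by edgeR 4.0.16 in R 4.3.3 (filterByExpr, TMM, quasi-likelihood F test, no covariate), and p-values were adjusted by Benjamini-Hochberg over 14995 genes. Standard errors were taken as the log2 fold change over the root of F. All 10 members passed the filter. The procedure was tested on simulated counts. Where a 2-fold difference had been put in, it picked up 12 out of 80. At 4-fold it picked up 46 out of 55, and at 8-fold 64 out of 65. It also made 11 false calls. Most 2-fold differences were thus missed, so a gene left uncalled is not shown to be equal in both groups. The alternatives were DESeq2 1.42.0, limma-voom 3.58.1, other scalings and filters, a replicate block and leaving out each library.

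The members and lists were chosen with earlier results of these data known. All members are reported. From other lists, up to 4 tested genes with the smallest p could be named, plus class I chains and inducible proteasome genes of at least 5 CPM, of which the 6 most abundant chains are given, and the standard partners of the inducible subunits. Promoter windows came from RefSeq (GRCm38.p6), 8 of 10 members matching. A gene that the rule allowed is not reported here.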

Additional observations from a re-analysis of the deposited data

How the results depend on the processing

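The 10 genes were called in 0 of 110 combinations of gene and alternative. Their median log2 fold change was -0.060 with library size alone and -0.29 to 0.017 when 1 library was left out, with -0.29 without Ctrl 2 and 0.017 without Ctrl 1. In the same way the median ran from -0.29 to 0.053 for the inducible proteasome list and from -0.21 to 0.11 for MHC class II. Over all genes, 1 was called higher and 0 lower with all libraries, 32 and 21 with DESeq2, 0 and 0 with limma-voom, with no filter and with library size alone, and 0 to 19 in each direction when 1 library was left out. The cause was not tested. Same-numbered libraries share only a number, with a correlation of -0.085 between their deviations across 14995 genes. With the replicate block 19 genes were called higher and 14 lower, 0 of the 10 among them, and the members' median was -0.13.

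With 1 library left out, single genes that reversed had log2 fold changes of -0.35 to 0.088 for H2-K1, -0.42 to 0.0087 for H2-D1, -0.16 to 0.34 for B2m, -0.52 to 0.024 for Tap1, -0.41 to 0.0095 for Tap2, -0.30 to 0.047 for Psmb8, -0.13 to 0.14 for Psmb9, -0.024 to 0.52 for Erap1, -0.28 to 0.17 for Nlrc5, -0.32 to 0.017 for H2-T23. For the others they were -0.21 to 0.25 for H2-Q6, -0.087 to 0.42 for H2-Q7, -0.39 to 0.00013 for Fcgrt, -0.21 to 0.10 for Hfe, -0.52 to 0.10 for Tapbpl, -0.28 to 0.011 for Calr, -0.43 to 0.044 for Ganab, -0.28 to 0.090 for Psmb10, -0.32 to 0.047 for Psme1, -0.30 to 0.059 for Psme2, -0.15 to 0.039 for Pomp, -0.25 to 0.017 for Psmb5, -0.19 to 0.0084 for Psmb6, -0.031 to 0.30 for Psmb7, -0.31 to 1.72 for Tpp2 and -0.34 to 0.12 for Irf1. With library size alone the reversed values were 0.078 for Psmb9, 0.018 for Nlrc5, 0.019 for Hfe, 0.0038 for Hspa5, 0.020 for Pomp. With at least 1 CPM in 2 libraries the reversed values were 0.0091 for Psmb9. With limma-voom the reversed values were 0.0019 for Psmb9. With replicate block the reversed values were 0.0020 for Psmb9. With DESeq2 size factors in edgeR the reversed values were -0.014 for H2-Q6. With no filter the reversed values were -0.0074 for H2-Q6. With DESeq2 the reversed values were -0.014 for H2-Q6.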
